A study of Homo sapiens with 8 samples.

Results

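PHOX2A, HAND2, GATA2, GATA3, ISL1, TBX2, TFAP2B and SOX11 are transcription factor genes of the noradrenergic program of neuroblastoma. These 8 genes were taken by symbol, and each was present in both the RNA-seq and the Ribo-seq count table, which together list 19073 symbols, 12873 of them shared. The study used SH-SY5Y, a human neuroblastoma line long established in culture. It compared cells with a short hairpin RNA against RPS29 (shRPS29, labelled as RPS29 knockdown) and cells with a control hairpin (shCONT). RPS29 encodes a protein of the small ribosomal subunit. RNA-seq measured transcript levels and Ribo-seq measured the mRNA fragments that ribosomes protect from RNase (footprints), with 2 libraries per group and 4 per assay. Whether the 2 libraries of a group came from separate cultures, how the hairpins were delivered, and whether the cells were a clone is not given in the labels, so p-values measure only the spread between these libraries.

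Noradrenergic neuroblastoma cells resemble the sympathetic neuroblasts from which the tumour arises, and they keep that state through transcription factors that bind each other's regulatory regions and their own. PHOX2A is a paired-type homeodomain protein that drives genes of noradrenaline synthesis, and ISL1 is a LIM-homeodomain protein of sympathetic neuron development. GATA2 and GATA3 are zinc finger factors, HAND2 is a basic helix-loop-helix factor that pairs with E proteins, TBX2 is a T-box factor best known as a repressor, TFAP2B belongs to the AP-2 family, and SOX11 is a SoxC factor of immature neurons.

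The libraries held 17539104 to 19156104 counts in RNA-seq and 2630463 to 4375971 in Ribo-seq. The 4 genes with the most counts took 45.9 and 51.6% of the Ribo-seq control libraries. They took 35.3 and 52.3% of knockdown replicates 1 and 2, against 2.60 to 3.16% in RNA-seq, so fewer footprints were left for other genes. The Ribo-seq library shRPS29 replicate 1 stood apart: its Spearman correlations across genes with the controls were 0.528 and 0.455, against 0.827 between the controls, and genes at 100 RNA CPM or more had a median of 18.3 footprint CPM there against 25.3 to 34.1 in the other 3 libraries. CPM here are counts relative to the library's total over genes that passed a filter for low counts, corrected per library by a TMM factor. The levels of the Schwann, blood, epithelial, fibroblast and endothelial markers below are relative to the full library total, without that factor. RPS29 itself measured 137 and 160 RNA CPM in the controls and 7.53 and 6.46 in shRPS29, a log2 fold change of -4.40 (SE 0.115, edgeR quasi-likelihood adjusted p = 6.32e-12). DBH, the enzyme that makes noradrenaline, lay between 1270 and 1375 RNA CPM in the 4 libraries, whereas TH, which opens that pathway, had 4, 2, 1 and 0 counts. All 8 Schwann cell markers were under 1 CPM or unlisted, with a summed level of 2.04 to 2.87 CPM. The 12 blood markers, 9 of them under 1 CPM, summed to 9.60 to 10.8 CPM in the controls and 13.99 to 17.3 CPM in shRPS29, the 8 epithelial markers to 7.36 to 11.0 CPM over all libraries, and the 10 fibroblast and endothelial markers, led by COL3A1 at 224 CPM, to 308 to 336 and 330 to 392 CPM. The part of those cell types in the results was not tested.

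At the RNA level 4 of the 8 factors changed. TBX2, ISL1 and GATA2 rose, TFAP2B fell, and PHOX2A, GATA3, HAND2 and SOX11 did not pass the test. Over all 14723 genes tested, 30.7% were called by edgeR at a Benjamini-Hochberg adjusted p below 0.05, with 14.4% higher and 16.3% lower, so calls were frequent throughout the transcriptome. The median log2 fold change of the 8 was 0.15, against 0.01 over all genes. The knockdown libraries lay above both controls for 5 of the 8 (TBX2, ISL1, GATA2, PHOX2A and GATA3) and below both for TFAP2B, where 32.3% and 32.9% of all genes did so in the respective direction. The libraries are bulk, so fewer cells with a transcript and less of it per cell cannot be told apart.

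**Figure D1:**
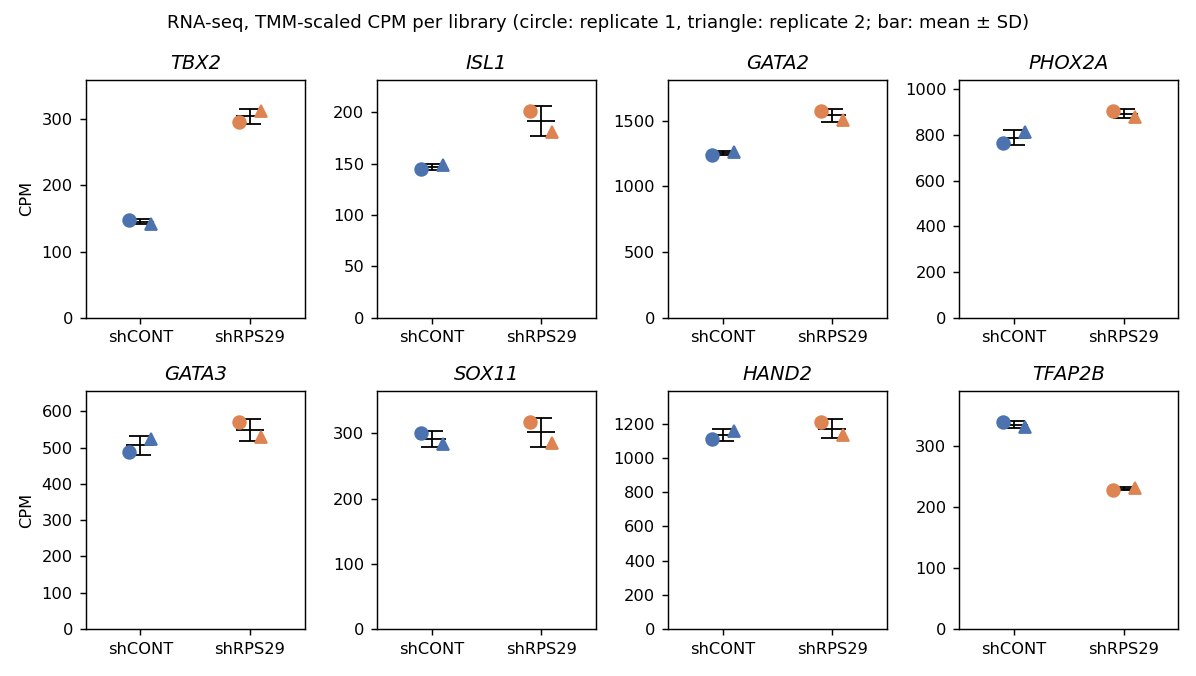
RNA level of each factor in TMM-scaled CPM (vertical axis, from 0, own scale per gene) in shCONT and shRPS29 libraries; circles are replicate 1, triangles replicate 2, and the bars give mean ± SD. TBX2 stood at 142 to 148 CPM in the controls and 297 to 313 CPM in shRPS29, while HAND2 and SOX11 overlapped between the groups.

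TBX2 had the largest change of the 8. Its level was 148 and 142 CPM in shCONT and 297 and 313 CPM in shRPS29, and the groups did not overlap. The increase was 2.10-fold (log2 fold change 1.07, SE 0.0708, edgeR adjusted p = 1.60e-07), and it kept its call in each fit that left out 1 of the 4 libraries (1.04 to 1.11). It was also the only factor of the 8 called when the change was tested against 1.5-fold (edgeR glmTreat adjusted p = 0.00013), a call that 1.60% of all genes received, 0.469% as higher. TBX2 lies at chr17:61399843-61409466 (GRCh38.p14), and none of the 3 tested genes within 250 kb, BCAS3, TBX2-AS1 and LINC02875, passed the test (log2 fold changes 0.06, 0.27 and 0.27). Its close paralog TBX3 rose by less, at 365 and 375 CPM in shCONT and 453 and 462 CPM in shRPS29 (log2 fold change 0.31, SE 0.0696, edgeR adjusted p = 0.0039), a call that was lost without either control library (edgeR adjusted p = 0.161 and 0.103).

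TFAP2B was the factor that fell. It measured 339 and 330 CPM in shCONT and 228 and 231 CPM in shRPS29, with both pairs tight and far apart. The level was 1.46-fold lower (log2 fold change -0.54, SE 0.0684, edgeR adjusted p = 4.09e-05), and it stayed called without any 1 library (-0.56 to -0.53). Its gene spans chr6:50818355-50847619, and no other tested gene lies within 250 kb. Of the 4 other AP-2 genes, TFAP2A, TFAP2C, TFAP2D and TFAP2E, none had enough RNA counts to be tested.

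ISL1 (chr5:51383448-51394730) rose from 145 and 149 CPM in shCONT to 202 and 181 CPM, 1.30-fold (log2 fold change 0.38, SE 0.0747, edgeR adjusted p = 0.0013), and was called in all 4 fits without 1 library. PHOX2A (chr11:72239077-72244176), the other homeodomain factor, measured 764 and 811 CPM in shCONT and 905 and 878 CPM in shRPS29. Those groups did not overlap either, but the difference of 0.18 (SE 0.0751) missed the threshold in edgeR (adjusted p = 0.0860) and passed it in DESeq2 (adjusted p = 0.0448), which called 12.2% of genes higher.

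GATA2 (chr3:128479422-128493201) stood at 1241 and 1262 CPM in shCONT and 1575 and 1505 CPM in shRPS29, with no overlap. GATA2 was 1.23-fold higher (log2 fold change 0.30, SE 0.0766, edgeR adjusted p = 0.00829), but the call was lost without control replicate 1 (adjusted p = 0.255) or control replicate 2 (adjusted p = 0.205), while the value itself stayed at 0.29 and 0.31. GATA3 (chr10:8045333-8075198) was at 488 and 524 CPM in shCONT and 570.5 and 528 CPM in shRPS29. The groups came within a few CPM of each other, and the difference of 0.12 (SE 0.0756) was not called by edgeR (adjusted p = 0.267), though without knockdown replicate 2 it was (adjusted p = 0.00469). With that library left out, 5 of the 8 factors were called higher rather than 3, PHOX2A and GATA3 being the additional ones, and the share of all genes called higher was 18.1% rather than 14.4%.

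HAND2 and SOX11 had no detectable RNA change. HAND2 (chr4:173526091-173530229) measured 1113 and 1161 CPM in shCONT and 1211 and 1133 CPM in shRPS29 (log2 fold change 0.04, SE 0.0774, edgeR adjusted p = 0.711). SOX11 (chr2:5692384-5701385) measured 301 and 283 CPM in shCONT and 317 and 286 CPM in shRPS29 (0.05, SE 0.0752, adjusted p = 0.682). In both the knockdown values interleaved with the controls. SOX4, the SoxC paralog of SOX11, fell by 0.30 on the log2 scale (SE 0.0712, edgeR adjusted p = 0.00549), from 664 and 653 CPM to 532 and 540 CPM, a call lost without either control library (adjusted p = 0.176 and 0.131).

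Several of these genes start back to back with a non-coding RNA on the opposite strand. RefSeq (GRCh38.p14) holds promoter windows for 6 of the 8 genes. ISL1, HAND2 and GATA3 are shown because a start of the opposing RNA falls inside the 250 bases before a start of theirs. GATA2 is shown because it was called higher. RefSeq lists 6 starts for GATA3 and 2 for GATA2: the GATA3 window shown is the one next to GATA3-AS1, and the GATA2 window shown is that of the outermost start. Sequences run 5′ to 3′ on the gene's strand and end at the base before the transcription start. Capitals mark matches on either strand to 6 motifs, each a short core bound by a family among the 8 factors. The core of GATA factors is AGATAA. Helix-loop-helix factors bind the E-box, CANNTG. For homeodomain factors TAATTA was searched. The T-box core was GGTGTGA. The AP-2 family motif was taken as GCCNNNGGC. For SOX factors the letters searched were ACAAAG.
ISL1, plus strand, chr5:51383198-51383447: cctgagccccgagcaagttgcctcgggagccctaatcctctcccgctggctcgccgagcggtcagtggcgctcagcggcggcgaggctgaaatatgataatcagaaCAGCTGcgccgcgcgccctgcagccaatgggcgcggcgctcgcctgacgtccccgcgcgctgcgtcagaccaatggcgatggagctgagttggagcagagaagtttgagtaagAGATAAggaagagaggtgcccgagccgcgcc
HAND2, minus strand, chr4:173530230-173530479: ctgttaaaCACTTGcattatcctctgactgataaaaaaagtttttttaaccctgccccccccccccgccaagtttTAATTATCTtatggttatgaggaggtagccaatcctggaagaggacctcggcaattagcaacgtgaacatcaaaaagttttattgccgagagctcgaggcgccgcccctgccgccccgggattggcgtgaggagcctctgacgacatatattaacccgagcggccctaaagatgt
GATA3, plus strand, chr10:8053391-8053640: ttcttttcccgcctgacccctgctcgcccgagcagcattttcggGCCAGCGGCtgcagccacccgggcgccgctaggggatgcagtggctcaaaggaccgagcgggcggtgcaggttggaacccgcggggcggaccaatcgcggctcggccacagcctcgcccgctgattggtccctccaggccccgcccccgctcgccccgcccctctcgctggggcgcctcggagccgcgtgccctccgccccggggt
GATA2, minus strand, chr3:128493202-128493451: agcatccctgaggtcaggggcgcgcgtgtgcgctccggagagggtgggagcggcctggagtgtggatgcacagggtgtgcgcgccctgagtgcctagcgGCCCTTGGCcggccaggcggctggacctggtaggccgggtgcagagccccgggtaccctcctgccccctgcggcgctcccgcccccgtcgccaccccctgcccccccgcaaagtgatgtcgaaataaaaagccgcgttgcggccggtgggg

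In the ISL1 window the GATA motif starts at -31 and an E-box at -144, counting bases back from the start, and ISL1-DT begins 116 bases upstream on the other strand. In the HAND2 window a GATA match at -172 overlaps a homeodomain match at -175, and an E-box lies at -242. The nearest HAND2-AS1 start lies 229 bases upstream, while the annotated HAND2-AS1 span also covers 1630 bases of HAND2. The GATA3 window shown holds an AP-2 match at -206, and the nearest GATA3-AS1 start lies 157 bases upstream. Windows of the other GATA3 starts also hold E-box, AP-2 or SOX matches, or no match. The GATA2 window shown holds 1 AP-2 match at -151 and none of the other 5 motifs, while the window of the second GATA2 start, chr3:128488531-128488780, holds 3 E-boxes and 2 AP-2 matches. Among 35116 RefSeq windows of the same length, the GATA motif is in 9.17%, the E-box in 61.8%, the homeodomain motif in 4.35%, the T-box motif in 2.76%, the AP-2 motif in 19.8% and the SOX motif in 13.7%. An E-box is therefore common in such windows and a homeodomain match rare. The PHOX2A and TFAP2B windows hold no match to any of the 6. These are matches of letters and not measured binding.

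The opposing RNAs were counted in RNA-seq and were absent from the Ribo-seq table. ISL1-DT measured 36.7 and 30.9 CPM in shCONT and 46.5 and 39.0 CPM in shRPS29 (log2 fold change 0.34, SE 0.111, edgeR adjusted p = 0.0298). GATA3-AS1 measured 21.4 and 20.8 CPM in shCONT and 32.9 and 25.5 CPM in shRPS29 (0.47, SE 0.124, adjusted p = 0.00984). GATA3 itself was not called, and the difference between these partners was not tested. GATA2-AS1 was at 13.4 and 12.3 CPM against 16.2 and 18.0 CPM (0.41, SE 0.130, edgeR adjusted p = 0.0269). For these 3 the knockdown libraries lay above both controls. HAND2-AS1, at 28.0 to 32.5% of the HAND2 count, and TBX2-AS1, at 2.995 to 6.62% of the TBX2 count, did not pass (0.15 and 0.27, adjusted p = 0.121 and 0.267). The annotated spans of GATA2-AS1, GATA3-AS1 and HAND2-AS1 overlap their partner by 3999, 3035 and 1630 bases, and the strand setting of the counting is not given in the sources used here, so reads of partners cannot be told apart there. ISL1-DT and ISL1 do not overlap. The calls did not all hold: DESeq2 missed GATA2-AS1 (adjusted p = 0.0907) and ISL1-DT (adjusted p = 0.0613), GATA2-AS1 kept its edgeR call only without knockdown replicate 1, ISL1-DT lost it without control replicate 2 or knockdown replicate 1, and GATA3-AS1 lost it without knockdown replicate 1 (adjusted p = 0.0799).

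The rest of the noradrenergic program showed both directions. Of 18 other noradrenergic transcription factors 16 were tested, and 2 rose while 9 fell, with a median of -0.30. Over all genes 14.4% were called higher and 16.3% lower in edgeR. DACH1 had the largest decrease, from 23.1 and 23.6 CPM to 9.43 and 9.93 CPM (log2 fold change -1.27, SE 0.124, edgeR), and ZNF536 fell by 0.76 on the log2 scale. MYCN, the oncogene amplified in many high-risk neuroblastomas, had only 89 and 54 counts in shCONT and 35 and 32 in shRPS29; its decrease (-1.17, SE 0.329, edgeR adjusted p = 0.0143) did not pass without control replicate 1 (-0.76, adjusted p = 0.244). MYCN was named after its values were seen. HAND1, the HAND2 paralog, rose from 175 and 189 CPM to 246 and 238 CPM (0.41, SE 0.0711, edgeR adjusted p = 0.000532). Among 16 paralogs of the 8 factors only 7 had enough counts, with 3 higher (HAND1, TBX3 and GATA4) and 1 lower (SOX4); when either control library was left out, 1 was higher (HAND1) and 0 lower. Of all genes, 8.09% were called higher and 1517 of 15149 lower without control replicate 1, and 8.15% higher and 9.85% lower without control replicate 2.

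ID proteins made up most of the partners that rose. Of 17 E proteins, ID proteins, LIM-domain partners and FOG proteins, 15 were tested, with 5 higher, 3 lower and a median of 0.08. All genes together gave 14.4% higher and 16.3% lower. The 5 higher partners were ID1, ID2, ID3 and ID4, which bind E proteins and keep them from pairing with factors such as HAND2, and ZFPM1, a FOG protein that binds GATA factors. ID1 went from 79.3 and 81.9 CPM to 156 and 154 CPM (log2 fold change 0.94, SE 0.0721, edgeR adjusted p = 5.15e-07), and ID4 from 6.42 and 7.64 CPM to 18.2 and 20.1 CPM (1.45, SE 0.147). Those that fell were TCF4, an E protein, by 0.42, LDB1, which bridges LIM factors such as ISL1, by 0.24, and LMO3 by 0.68 on the log2 scale.

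Noradrenergic effector genes, the enzymes, transporters, granule proteins and receptors downstream of these factors, were split: of 19 tested 5 rose and 4 fell, with a median of 0.06. The neuropeptide gene VIP rose from 44.0 and 50.8 CPM to 123 and 124 CPM (log2 fold change 1.38, SE 0.0849, edgeR), the granule protein SCG2 rose by 1.04, while the granule protein CHGA fell by 0.47 and DBH showed no call (0.06, SE 0.0777). Without either control library fewer effectors were called in each direction, as were fewer of all genes. Of 22 factors of the opposite, mesenchymal state 16 were tested, with 5 higher and 3 lower and a median of 0.33. Fewer of them were higher without control replicate 2, as were fewer of all genes. FOSL1 rose from 2.48 and 3.07 CPM to 6.92 and 8.33 CPM and JUN, its AP-1 partner, by 0.59 on the log2 scale, whereas TEAD1 fell by 0.46. Against these values, the median over all genes was 0.01, with 14.4% called higher and 16.3% lower.

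**Figure D2:**
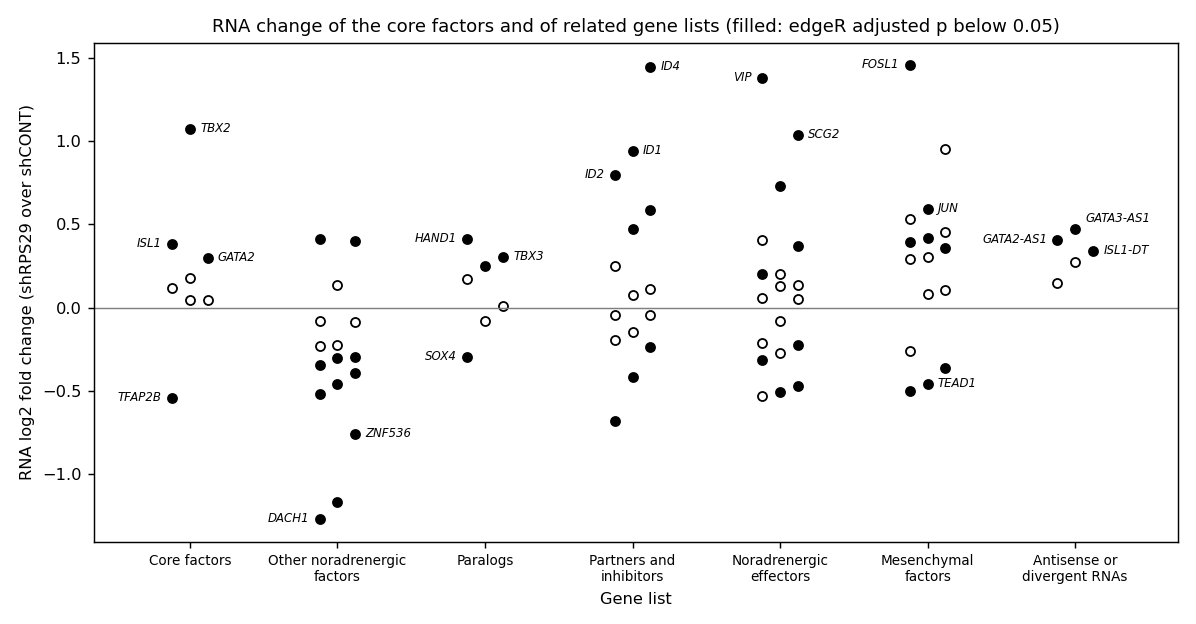
RNA log2 fold change (vertical axis, shRPS29 over shCONT) of each tested gene in 7 lists; filled points passed the edgeR test at an adjusted p below 0.05. TBX2, at 1.07, is the highest core factor, and 9 of the 16 other noradrenergic factors are filled below 0, where 16.3% of all genes were called lower.

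The edgeR test on Ribo-seq counts called 0 of the 8 factors, as did DESeq2, where 8.57% and 10.9% of 11853 genes were called. In edgeR 7.96% of genes were higher and 0.607% lower, and in DESeq2 1.42% were lower. With limma-voom GATA3 was called lower (adjusted p = 0.0333), a call that 1.44% of genes received. Without knockdown replicate 2 edgeR called PHOX2A lower (-2.42, adjusted p = 0.0455), where 0.411% of genes were lower. Footprints of PHOX2A, GATA2, GATA3, ISL1 and TFAP2B were lower in both knockdown libraries than in either control, while HAND2, SOX11 and TBX2 overlapped. That order of the libraries was common among abundant transcripts: 26.7% of all genes and 51.5% of the 2321 genes at 100 RNA CPM or more, the range all 8 factors are in, had both knockdown libraries below both controls.

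**Figure D3:**
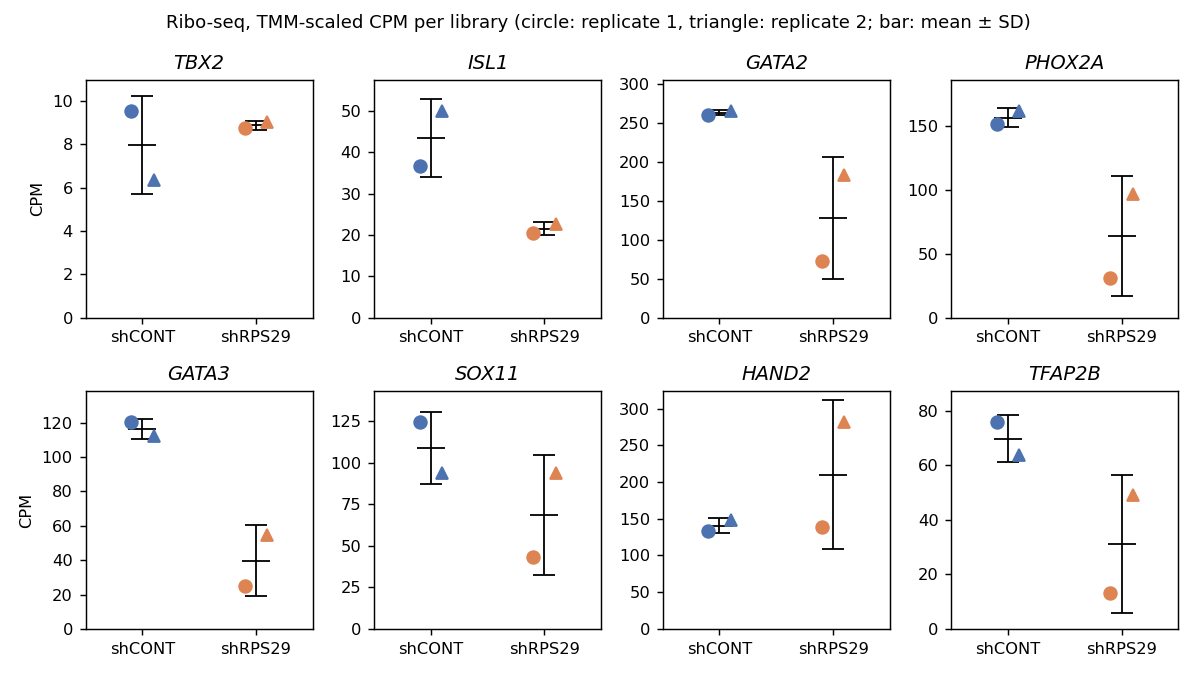
Ribo-seq footprints of each factor in TMM-scaled CPM (vertical axis, from 0, own scale per gene), with circles for replicate 1, triangles for replicate 2 and bars for mean ± SD. The knockdown replicate 1 circle is the lowest of the 4 libraries for 6 of the 8 genes, and HAND2 replicate 2, at 282 CPM, is the highest value of its gene.

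GATA3 had the lowest fold change: 120 and 112 CPM in shCONT, from 403 and 370 footprints, and 24.9 and 54.4 CPM in shRPS29, from 60 and 217 footprints (log2 fold change -1.54, SE 0.570, edgeR adjusted p = 0.106). GATA2 measured 261 and 266 CPM against 72.8 and 183 CPM (-1.04, SE 0.599, adjusted p = 0.323). Both GATA factors were therefore lower in each knockdown library, with a spread between those libraries that the test could not separate from the change. PHOX2A measured 152 and 162 CPM in shCONT and 30.8 and 97.1 CPM in shRPS29 (-1.29, SE 0.606, edgeR adjusted p = 0.214). ISL1 measured 36.7 and 50.0 CPM in shCONT and 20.4 and 22.6 CPM in shRPS29 (-1.01, SE 0.548, adjusted p = 0.289). The ISL1 knockdown libraries lay close together, unlike those of PHOX2A, where replicate 2 was over 3 times replicate 1. TFAP2B, whose RNA fell, measured 75.8 and 63.7 CPM in shCONT and 13.3 and 48.9 CPM in shRPS29 (-1.15, SE 0.615, edgeR adjusted p = 0.282).

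HAND2 had the highest fold change of the 8. Its footprints were 134 and 148 CPM in shCONT and 138 and 282 CPM in shRPS29, from 449, 487, 333 and 1123 footprints (log2 fold change 0.58, SE 0.573, edgeR adjusted p = 0.602). Knockdown replicate 1 lay between the controls and replicate 2 far above them, so the value rests on 1 library: it was 1.01 without replicate 1 and -0.10 without replicate 2. SOX11 measured 124 and 93.7 CPM against 43.2 and 94.1 CPM (-0.66, SE 0.566, adjusted p = 0.535), and knockdown replicate 2 lay between the controls. TBX2 had few footprints, 32 and 21 in shCONT and 21 and 36 in shRPS29 (9.55, 6.37, 8.73 and 9.03 CPM), and no difference was detectable at this depth (0.16, SE 0.776, adjusted p = 0.936).

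The 8 factors had a median footprint change of -1.02, against 0.04 over all genes and -0.61 over the genes at 100 RNA CPM or more, 78.2% of which were below 0. The level of knockdown replicate 1 moved with these values: the 8 genes took 0.0322% of its counts, against 0.0721 to 0.106% in the other 3 libraries. Without it the median over the 8 was -0.51, and without knockdown replicate 2 it was -1.67. Even scatter of reads over gene spans was assumed, at the median density of genes almost without RNA. In knockdown replicate 1 it would give 10.6 of the 60 GATA3, 10.4 of the 32 TFAP2B and 3.41 of the 21 TBX2 footprints. It would give under 5 footprints for each of the other 5 factors in that library. Whether reads scatter in this way was not tested.

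Footprints per RNA, the ratio of the CPM of the assays, allows genes to be set side by side, since transcript length enters both; it still depends on how much of the transcript is coding. In the controls SOX11 had the highest ratio, 0.374 (0.312 to 0.439 over pairs of control libraries), followed by ISL1 at 0.296 (0.247 to 0.346), and these overlap. The highest GATA3 value, 0.246, sat just under the lowest of ISL1. GATA3 (0.230), GATA2 (0.210), TFAP2B (0.208) and PHOX2A (0.199) came next, with overlapping ranges between neighbours, near the median of 0.233 over 9830 genes at 10 RNA CPM or more. HAND2 followed at 0.124 (0.115 to 0.133), below the range of every factor above it. TBX2 was lowest at 0.0548 (0.0430 to 0.0671), at percentile 5.27 of those genes, so the factor whose RNA rose most also had the lowest footprints per RNA.

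In the knockdown the ratios were 0.228 for SOX11, 0.112 for ISL1, 0.0831 for GATA2, 0.0723 for GATA3, 0.0717 for PHOX2A, 0.135 for TFAP2B and 0.0291 for TBX2, each under its control value, and 0.179 for HAND2, above it. The interaction test of edgeR over all 8 libraries called 0 of the 8, against 3.89% of 10648 genes, 3.01% higher and 0.873% lower. Closest were ISL1 (log2 change of the ratio -1.27, SE 0.322, adjusted p = 0.0602) and GATA3 (-1.54, SE 0.474, adjusted p = 0.0933). DESeq2 called these 2 lower (adjusted p = 0.00065 and 0.00686), where it called 8.71% of genes lower, and limma-voom called GATA3 (adjusted p = 0.0487), with 1.69% of genes lower. The TBX2 ratio differed by -0.80 (SE 0.373, edgeR adjusted p = 0.221). With 21 to 36 footprints a library, no footprint change of TBX2 was detectable beside its RNA increase.

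**Figure D4:**
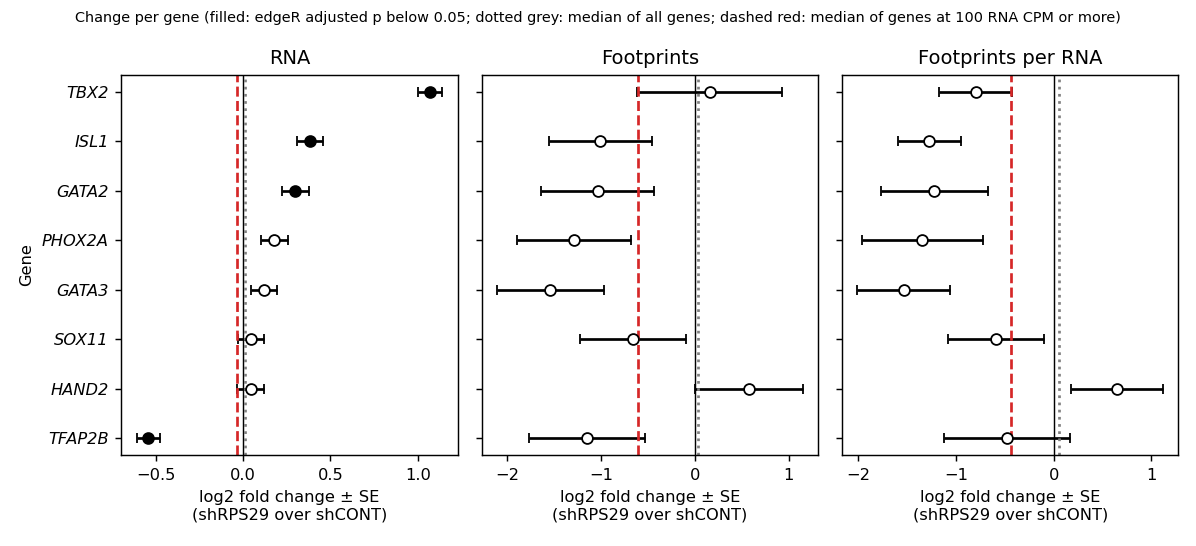
Log2 fold change ± SE (horizontal axes, shRPS29 over shCONT) of each factor in RNA, footprints and footprints per RNA; filled points passed the edgeR test, the dotted line is the median of all genes and the dashed line that of genes at 100 RNA CPM or more. HAND2 is the only factor right of 0 in footprints per RNA, at 0.65, and ISL1 and GATA3 lie at -1.27 and -1.54.

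These ratio calls depended on the Ribo-seq library used. Without Ribo-seq knockdown replicate 2, 6 of the 8 were called lower, but 1712 of 11403 genes were called lower in that fit, against 93 of 10648 with all libraries. Without knockdown replicate 1, 3 were lower (PHOX2A, GATA3 and ISL1), as were 4.96% of all genes, and HAND2 was higher (1.04, edgeR adjusted p = 0.0279), as were 6.66%. Without control replicate 1, 1 was lower (ISL1), as were 4.36% of all genes. HAND2 without knockdown replicate 2 stood at 0.06. The median over the 8 was -1.01, against 0.06 over all genes and -0.44 over genes at 100 RNA CPM or more, where 71.7% were below 0.

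The composition of the 8 genes' counts within each library does not depend on scaling between libraries. HAND2 took 14.7 and 16.4% of the factors' footprints in the controls and 39.3 and 35.6% in shRPS29. The Wilson 95% intervals, 13.5 to 15.97 and 15.1 to 17.8% against 36.0 to 42.6 and 34.0 to 37.3%, cover counting error only, and they leave a wide gap between the groups, which both knockdown libraries share. In RNA the HAND2 share was 24.5 and 24.9% against 22.8 and 22.4%, the other direction. GATA3 went from 13.2 and 12.4% of the footprints to 7.08 and 6.88%, PHOX2A from 16.6 and 18.0% to 8.73 and 12.3%, and GATA2 from 28.6 and 29.5% to 20.6 and 23.2%. A share falls when another gene of the 8 rises, and rises when others fall. In knockdown replicate 1 HAND2 had 333 footprints, against 449 and 487 in the controls, and its CPM lay between theirs. GATA2 had 175 there, against 874 and 876. The larger HAND2 share in that library therefore does not mean more HAND2 footprints, and these shares describe only the balance among the factors. The TBX2 share of the factors' RNA was 3.26 and 3.05% in shCONT and 5.59 and 6.20% in shRPS29. With 2 libraries a group, an exact two-sided permutation test of a single share cannot go below p = 0.333, so no test is given.

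**Figure D5:**
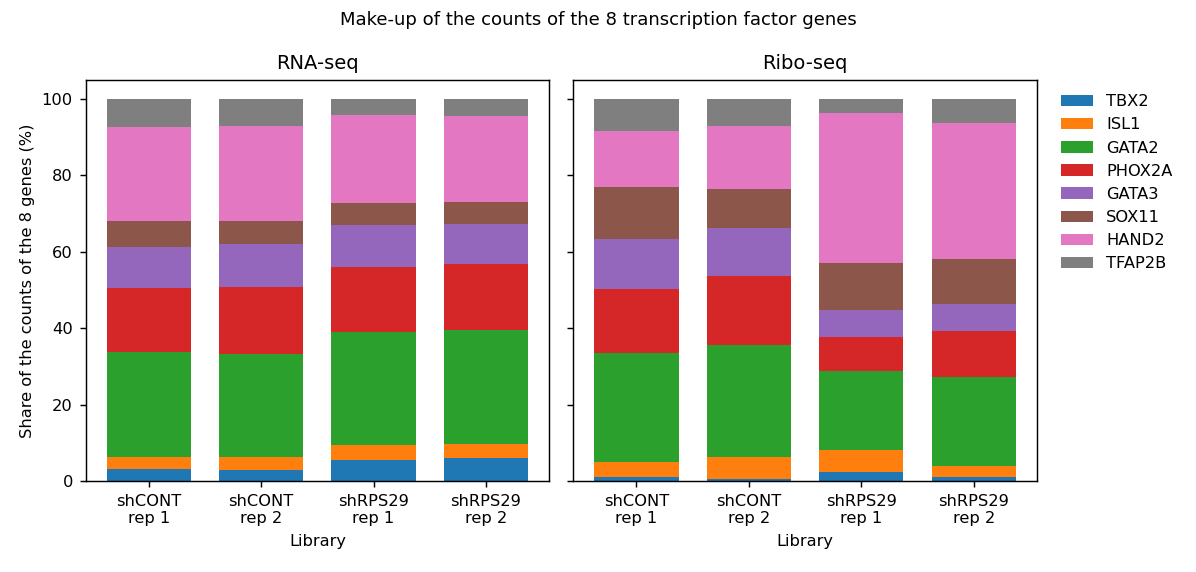
Share of the summed counts of the 8 genes (vertical axis, percent) taken by each factor in each RNA-seq and Ribo-seq library (stacked bars). HAND2 takes 14.7 and 16.4% of footprints in the controls and 39.3 and 35.6% in shRPS29, while its RNA share stays between 22.4 and 24.9%.

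ID2, one of the inhibitors whose RNA rose, was called lower in footprints per RNA. Its RNA went from 151 and 159 CPM to 291 and 247 CPM, and its footprints from 431 and 650 CPM to 178 and 218 CPM. The footprint log2 fold change was -1.45 (SE 0.606), which edgeR did not call (adjusted p = 0.157). DESeq2 called it lower (adjusted p = 0.0316), as it did 1.42% of genes. The log2 change of footprints per RNA was -2.12 (SE 0.373, edgeR adjusted p = 0.0323). Without 1 library it ranged from -2.37 to -1.84, and the call did not hold in every such fit. ID1 came to -1.84 (adjusted p = 0.0601). Among the 15 partners tested for the ratio, TCF12, an E protein, was the 1 called higher (1.46, edgeR adjusted p = 0.0433). Of all genes, 3.01% were called higher in the ratio and 0.873% lower. Genes almost without RNA had a higher median of Ribo-seq counts per kilobase of gene span in the knockdown, at 0.355 and 0.268 against 0.0824 and 0.0464 in the controls. Whether such reads are scattered over spans, and their part in the TCF12 value, was not tested.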

How the data were processed

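The authors deposited raw counts, whole numbers for each gene symbol, with 1 table per assay and no normalization visible in the values. The submitters' processing notes name build hg38 and the tools featureCounts, STAR, Salmon, Bowtie2 and Trim Galore. The annotation, the strand setting and the tool behind each table are not stated there, so counts of overlapping or opposite-strand genes and reads in introns are uncertain. Total RNA and a stranded kit were used for RNA-seq, per the labels' protocols, and Ribo-seq used cycloheximide lysates, RNase I and size-selected monosomes.

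From these counts, changes were tested with the quasi-likelihood test of edgeR 4.0.16 (R 4.3.3), with TMM scaling, filterByExpr and Benjamini-Hochberg adjustment over all genes tested. SE is the log2 fold change over the root of F. Footprints per RNA were tested as the assay-by-condition interaction over 8 libraries, with 1 dispersion per gene for both assays, which understates the footprint spread. DESeq2 1.42.0, limma 3.58.1 (voom), size factors, other count filters, a 1.5-fold threshold, a replicate block and each library left out were alternatives. On simulated data the RNA fit called most changed genes. The footprint and ratio fits returned folds of the right size there but called no changed gene. On the real libraries they called 8.57% and 3.89% of genes, so the simulation does not reproduce those data in this respect. A missing call in footprints or the ratio still does not show that a gene was unchanged. Named genes are RPS29, the 8 factors, the antisense or divergent RNAs, the 3 genes of each list with the smallest RNA p (a few list genes are counted but not reported here), and the 3 protein-coding genes nearest in RNA profile to TBX2 and to TFAP2B; any other gene was named after its values were seen. The factors and lists were chosen with earlier results of these data known. Positions and promoters come from RefSeq GRCh38.p14, matched by symbol.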

Additional observations from a re-analysis of the deposited data

How the results depend on the processing

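Of the single-gene values in RNA, footprints and footprints per RNA, no alternative that used all libraries reversed a direction. With DESeq2, 3 mesenchymal factors were higher in RNA, as were 12.2% of all genes. Tested against a 1.5-fold change with edgeR, 1 core factor was higher and 0 lower, other noradrenergic factors gave 0 and 1, partners 2 and 0, paralogs 0 and 0, effectors 2 and 0, and mesenchymal factors 1 and 0. That test called 1.60% of all genes, 0.469% as higher. Core factors called lower in footprints numbered 1 with limma-voom, and in footprints per RNA 2 with DESeq2 and 1 with limma-voom. The shares of all genes called lower were 1.44%, 8.71% and 1.69% in that order.

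Leaving out 1 library at a time, where the lone library of a group is assumed to vary like the others, gave 2 to 5 core factors higher and 1 lower in RNA; 2 to 3 and 6 to 10 other noradrenergic factors; 5 to 7 and 2 to 4 partners; 1 to 3 and 0 to 2 paralogs; 3 to 6 and 2 to 5 effectors; and 3 to 6 and 3 mesenchymal factors. For the core factors it gave 0 to 1 lower in footprints, and 0 to 1 higher and 0 to 6 lower in footprints per RNA. The number of all genes called also varied widely between these fits, in RNA, in footprints and in footprints per RNA. These ranges of calls are therefore not a result about the factors or the lists. Signs turned in RNA for BCAS3 (-0.00196 to 0.12), HAND2 (-0.0089 to 0.0953), SOX11 (-0.035 to 0.12) and TBX2-AS1 (-0.000413 to 0.50). In footprints they turned for TBX2 (-0.14 to 0.44) and HAND2 (-0.10 to 1.01), and in footprints per RNA for TFAP2B (-1.72 to 0.11). The cause of these turns was not tested.

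The replicate numbers share no stated batch, and deviations of same-numbered libraries correlated at -0.20 in RNA and 0.18 in Ribo-seq. A replicate block called 2 core factors lower in footprints (PHOX2A and GATA3) and ended the GATA2 RNA call (adjusted p = 0.0764). The block also lowered the edgeR adjusted p of RPS29 in footprints, from 0.0193 to 0.000434. The share of all genes called with a block is not given here, so these calls are not a result about the factors. With the numbers crossed, added after seeing the data, PHOX2A was called in RNA, again without a share of all genes to set beside it. With genes at 100 RNA CPM or more alone, also added later, HAND2 stood at 1.18 in footprints (edgeR adjusted p = 0.0832) and 1.09 in footprints per RNA (edgeR adjusted p = 0.0799). In footprints GATA3 then stood at -0.94, PHOX2A at -0.72, TFAP2B at -0.60, GATA2 at -0.46, ISL1 at -0.34, SOX11 at -0.07 and TBX2 at 0.81. Each core factor lay above its value in the fit of all genes, so the size of the footprint decreases depended on the genes kept in the fit. Ribo-seq depth limits TBX2 most.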

Other observations

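The RNA profiles nearest to that of TBX2 over the 4 RNA-seq libraries, among 9976 protein-coding genes at 10 CPM or more, were those of PTGER2, a prostaglandin E2 receptor, PHLDA3, known as a p53 target that restrains AKT, and TNFRSF12A, the receptor of TWEAK. Their Euclidean distances on centred log2 CPM were 0.0703, 0.0998 and 0.103, and their log2 fold changes were 1.18, 1.06 and 1.06. Nearest to TFAP2B were HSPA8, a constitutive HSP70 chaperone, HOXD9, a homeobox factor, and CALM3, a calmodulin gene, at distances of 0.0134, 0.0150 and 0.0259 and log2 fold changes of -0.53, -0.55 and -0.55. These genes were picked for likeness over the libraries compared, so their changes are descriptions.

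Within 250 kb of the 8 factors 27 other genes were tested in RNA, and 6 were higher and 2 lower in edgeR, against 14.4% and 16.3% of all genes. The higher ones include GATA2-AS1, GATA3-AS1 and ISL1-DT, the opposing RNAs already described, so this count is not a separate result. GATA2-AS1 and GATA3-AS1 also overlap their factor, and their reads cannot be told apart there. The lower ones were NUMA1, near PHOX2A, at -0.25 and HMGB2, near HAND2, at -0.38. Near GATA2, the higher ones beside GATA2-AS1 were RPN1 at 0.20 and the pseudogene TMED10P2 at 1.97, whose reads may be shared with its parent gene, and near PHOX2A RNF121 was higher at 0.40.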
